A study of Rattus norvegicus with 2 samples.

Results

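This account concerns weak Sox10 binding sites that also hold Chd7 in differentiating rat oligodendrocytes, which are the glia that wrap axons of the brain and spinal cord in myelin. The study mapped both proteins by chromatin immunoprecipitation followed by sequencing (ChIP-seq), with 1 library for each antibody (Chd7, CST #6505, and Sox10, Abcam ab27655). Both libraries came from primary Sprague Dawley oligodendrocyte progenitors that had differentiated for 3 days with T3 (the thyroid hormone triiodothyronine), and the chromatin was fixed in 1% formaldehyde and sonicated. There is no replicate, no untreated group and no other time point. The data are 1 list of called peaks per antibody, in which every peak has a position on the rat build rn5 and a caller score that is used here only to rank peaks within its own list. The scale of the score is not stated, and the read depth behind the peaks is unknown.

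Of the 38915 Sox10 peaks, 356 met the definition. They lay on chromosomes 1 to 20, had a Sox10 score below 75 and a width below 1500 bp, and overlapped a Chd7 peak by at least 1 bp with the centres no more than 200 bp apart. They are called weak shared sites below. A further 10324 peaks with the same limits on chromosome, score and width overlapped no Chd7 peak and serve as the comparison (weak Sox10-only sites). The remaining 49 of the 10729 weak Sox10 peaks overlapped a Chd7 peak with centres farther apart and belong to neither set. Scores, widths and the overlap itself chose the sites, so their values are descriptions. With 1 library per antibody no difference has a replicate error. Intervals are 95% intervals over peaks, which are not replicates, and cover counting error alone.

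Sox10 is a DNA-binding factor of the SRY-related HMG-box family, which bends DNA at short sequence elements and is required for oligodendrocytes to mature and to express myelin genes. Chd7 is a chromodomain helicase that uses ATP to move nucleosomes, is found largely at enhancers, and is mutated in CHARGE syndrome. A peak list does not say in how many cells, or for how long, a site is bound, nor whether the protein touches the DNA there itself.

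Weak Sox10 sites held Chd7 less often than each of 5 stronger classes of Sox10 sites. The 356 weak shared sites were 3.32% of the weak Sox10 peaks (interval 2.99% to 3.67%), against a background of 13.9% over all 37150 Sox10 peaks of the same chromosomes and width limit. An overlap at any centre distance was present in 405 weak peaks, or 3.77%. In the next class of Sox10 score, 75 to 100, an aligned Chd7 peak was present in 324 of 5680 peaks (5.70%, 5.12% to 6.34%). The share was 8.83% at 100 to 150, 16.4% at 150 to 250 and 28.8% at 250 to 500. At scores of 500 or more it was present in 1504 of 3564 (42.2%, 40.6% to 43.8%). Weak shared sites were thus 6.87% of all aligned Sox10 peaks under 1500 bp, and their Chd7 peaks were 2.43% of the 14624 Chd7 peaks on these chromosomes. With Chd7 peaks of score 60 or more alone, the share was 1.96%, on a base that left out the other weak peaks overlapping Chd7.

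Within the weak class the share depended on score and width. From 50 to 55 in Sox10 score, just above the lowest deposited score of 50, 90 of 3109 peaks held Chd7 (2.89%, 2.33% to 3.55%). From 70 to 75 it was 77 of 1524 (5.05%, 4.01% to 6.27%), a difference of 2.16 percentage points (0.97 to 3.49). The 3 classes between had shares of 2.58%, 3.46% and 3.41%, and the intervals of the classes 60 to 65 (2.71% to 4.35%) and 65 to 70 (2.59% to 4.40%) overlapped that of the highest class. By width, the share was 1.44% among peaks of 300 to 400 bp (0.96% to 2.07%) and 6.15% among those of 800 to 1500 bp (4.27% to 8.52%). Outside windows of 1 Mb with many Chd7 peaks, described further on, the widest class had 4.50% (2.80% to 6.79%) and that of 600 to 800 bp 4.84% (3.91% to 5.91%). Weak shared sites had a median Sox10 width of 560 bp (quartiles 466 and 664 bp) and weak Sox10-only sites of 495 bp (414 and 585 bp). The wider the peak, the more easily it meets another, and the part this takes in the width difference of 65 bp was not tested.

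**Figure D1:**
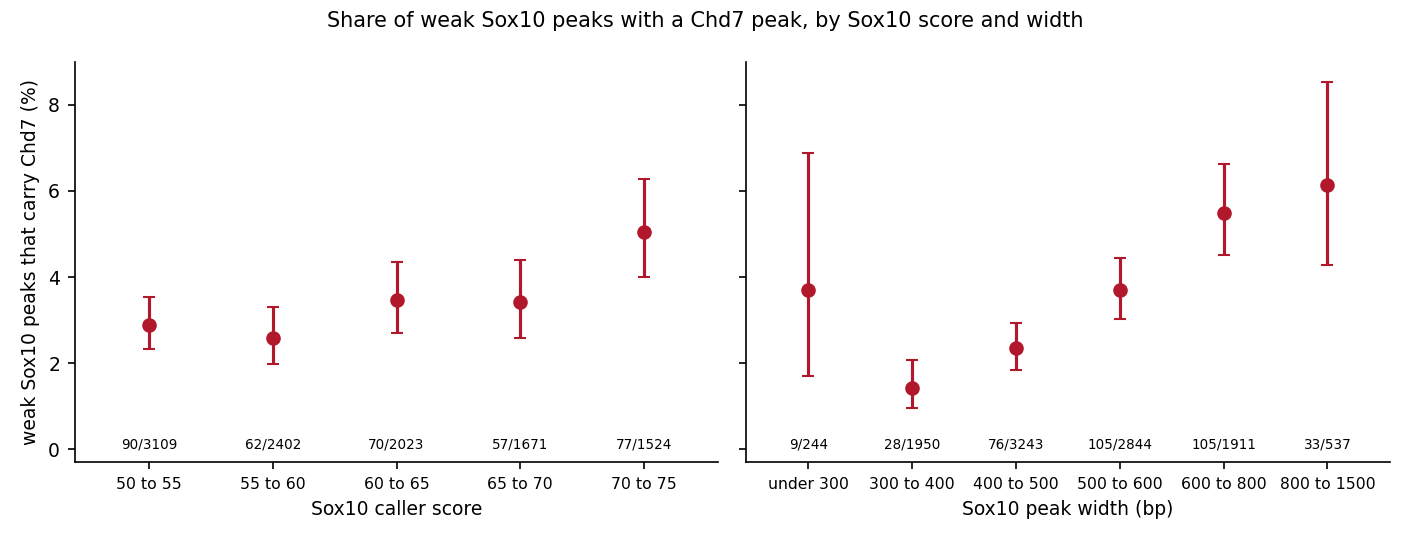
Percentage of weak Sox10 peaks that carry an aligned Chd7 peak, by Sox10 caller score (left) and Sox10 peak width in bp (right). Points are shares, bars are 95% exact binomial intervals, and the fractions give sites over weak peaks; the share was 5.05% in the highest score class and ran from 1.44% at 300 to 400 bp to 6.15% at 800 to 1500 bp.

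The limits of the definition on score and centre distance cut through a continuous range, while peaks near the width limit lay farther apart. Just inside the score limit were 3 sites of Sox10 score 74.97. The site at 86545244 to 86545832 of chromosome 5 had a Chd7 score of 90.4, that at 57466686 to 57467211 of chromosome 20 a score of 60.01, and that at 72951303 to 72951805 of chromosome 9 a score of 96.0. Just outside it were Sox10 scores of 75.07, 75.37 and 75.44, with Chd7 scores of 51.8, 67.0 and 98.6. Among these sites the Chd7 scores on either side of the Sox10 score limit interleaved. The widest weak shared sites measured 1438, 1415 and 1363 bp, and the narrowest peaks left out for width alone 1582, 1669 and 2274 bp. The largest centre distances inside the limit were 197.5, 194.5 and 192.5 bp, and the smallest outside it 200.5, 201 and 201 bp.

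At weak shared sites the Chd7 score was close to that of Chd7 peaks without any Sox10 call. The median Chd7 score of the 356 sites was 62.0 (interval 60.7 to 65.05; quartiles 54.8 and 79.0). The 8421 Chd7 peaks lacking a Sox10 overlap on the same chromosomes had a median of 62.7 (62.3 to 63.2), which lies within the interval of the weak shared sites. Chd7 peaks over aligned Sox10 peaks of score 75 or more had a median of 78.7 (77.4 to 79.8). A Chd7 score below 75 was present at 257 of the 356 weak shared sites (72.2%, 67.2% to 76.8%) and at 45.6% of the 4826 stronger aligned sites, a difference of 26.5 points (21.5 to 31.2). Among those stronger sites it was 66.4% at Sox10 scores of 75 to 100, 68.3% at 100 to 150 and 24.7% at 500 or more. Against the Chd7 peaks without Sox10, where 68.9% scored below 75, the difference was 3.24 points with an interval of -1.73 to 7.75.

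The step in Chd7 strength came well above the weak class. Chd7 medians were 66.0 at Sox10 scores of 75 to 100, 65.6 at 100 to 150 and 67.1 at 150 to 250. They were 79.2 at 250 to 500 and 106 at 500 or more. The interval of the weak shared sites overlapped those of the 75 to 100 class (63.6 to 68.3) and the 100 to 150 class (63.55 to 67.4), and lay below that of the 150 to 250 class (65.5 to 68.4). Chd7 width followed the same order more evenly, with a median of 289 bp (280 to 303 bp) at weak shared sites, 311 bp at Sox10 scores of 75 to 100 and 454.5 bp at 500 or more. Chd7 peaks without Sox10 had a median width of 279 bp (276 to 281 bp).

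**Figure D2:**
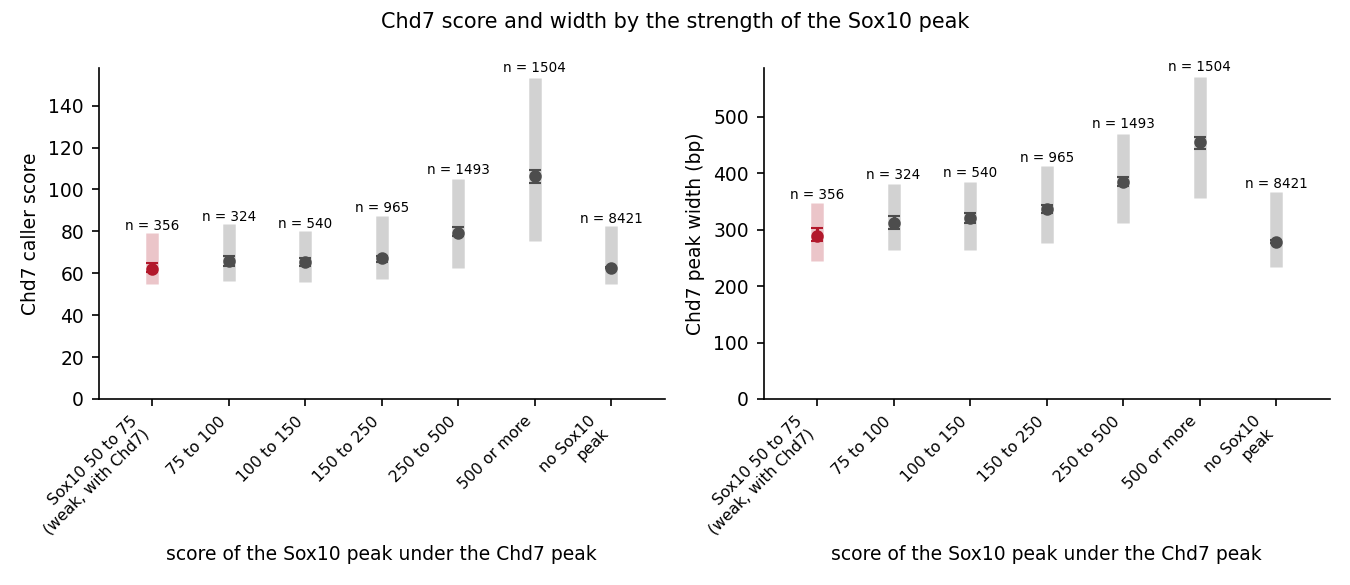
Chd7 caller score (left) and Chd7 peak width in bp (right) at aligned Sox10 peaks under 1500 bp, grouped by Sox10 score, and at Chd7 peaks that overlap no Sox10 peak. Points are medians with 95% exact order-statistic intervals and pale bars the quartiles; the weak class (red, median 62.0) lies beside the peaks without Sox10 (62.7) and below the class of 500 or more (106).

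Over the 356 sites the ranks of both proteins were at most weakly related. Spearman's rho between Sox10 and Chd7 score was 0.11, a description across sites of 1 library pair in a narrow score range. The Chd7 score ran from 50.01 to 1475. In the Chd7 list 104 of the sites (29.2%) fell in the lowest quartile and 57 (16.0%) in the highest, against 34.6% in the highest for the stronger aligned sites. By Sox10 score of the aligned sites, that share was 16.7% at 75 to 100, 12.8% at 100 to 150 and 18.8% at 150 to 250. It was 33.1% at 250 to 500 and 58.0% at 500 or more. The median percentile was 40.0 in the Chd7 list and 16.6 in the Sox10 list, and at 293 sites (82.3%) Chd7 ranked higher in its list than Sox10 did. The limit on Sox10 score fixes much of this, since 28.5% of the Sox10 list scores below 75 and no site could rank higher. Both scores were 60 or more at 124 sites and both below 60 at 71.

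In base pairs, the distance between Chd7 and Sox10 centres was similar at weak and at stronger sites. Sox10 peaks were narrower at weak sites, so a similar distance was a larger part of their width. The median distance between centres was 55.5 bp (49 to 63.5 bp) at weak shared sites and 57 bp (55.5 to 59 bp) at stronger aligned sites, with the limit of 200 bp applied to both. As a percentage of the Sox10 peak's half-width, the median distance was 19.8% (18.2% to 21.8%) at weak shared and 14.1% (13.7% to 14.5%) at stronger sites. Centres lay within 50 bp of each other at 164 sites (46.1%, 40.8% to 51.4%), against 44.7% of the stronger ones, and coincided exactly at 3 sites. Of the weak peaks that overlapped Chd7 at all, 87.9% met the centre limit, against 91.5% at Sox10 scores of 75 to 100. The Chd7 peak lay wholly inside the Sox10 peak at 291 of 356 sites (81.7%, 77.3% to 85.6%) and at 95.5% of stronger sites, a difference of -13.8 points (-18.2 to -10.1). Sox10 peaks were narrower in the weak class (medians 560 and 823 bp), and the part of width in this difference was not tested. At 11 weak shared sites the Chd7 peak was wider than the Sox10 peak, and at 6 sites the Sox10 peak overlapped a second Chd7 peak.

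Most of the strongest Chd7 peaks at weak Sox10 sites lay in a few stretches of the genome. Windows of 1 Mb, counted from the start of each chromosome, were called dense when they held 30 or more Chd7 peaks; 26 such windows lay on chromosomes 1 to 20. They held 45 of the weak shared sites (12.6%, 9.37% to 16.5%) and 160 of the weak Sox10-only sites (1.55%), a difference of 11.1 points (8.02 to 15.0), with 2.03% over all weak peaks. Of the 218 weak Sox10 peaks in dense windows 20.6% were shared, against 2.96% outside. Chd7 peaks define the windows, so choosing sites by a Chd7 peak can raise their share there. With a site's own Chd7 peak not counted in its window, the share of weak shared sites was 11.8% (8.64% to 15.6%). Any further part of this choice was not tested. Of the 4826 stronger aligned Sox10 peaks, also chosen for a Chd7 peak, 82 (1.70%) lay in dense windows. Of the 8421 Chd7 peaks lacking a Sox10 overlap, 1121 (13.3%) lay in dense windows, and the weak shared sites differed from these by -0.67 points (-3.82 to 3.25). The sites in dense windows had a median Chd7 score of 119 (72.7 to 149.6) and the 311 others of 60.9 (59.8 to 62.6). Of the 18 sites with a Chd7 score of 200 or more, 13 lay in dense windows, as did 9 of the 10 highest. Chd7 peaks without Sox10 included 507 of score 200 or more, and 320 of these were among the 7300 peaks outside dense windows. Leaving out the dense windows lowered the share in the highest quartile of the Chd7 list from 16.0% to 10.6% at weak shared sites. Among Chd7 peaks without Sox10 it fell from 19.1% to 15.4%, so stronger Chd7 in dense windows was not particular to the weak shared sites. A difference in degree was not tested.

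**Figure D3:**
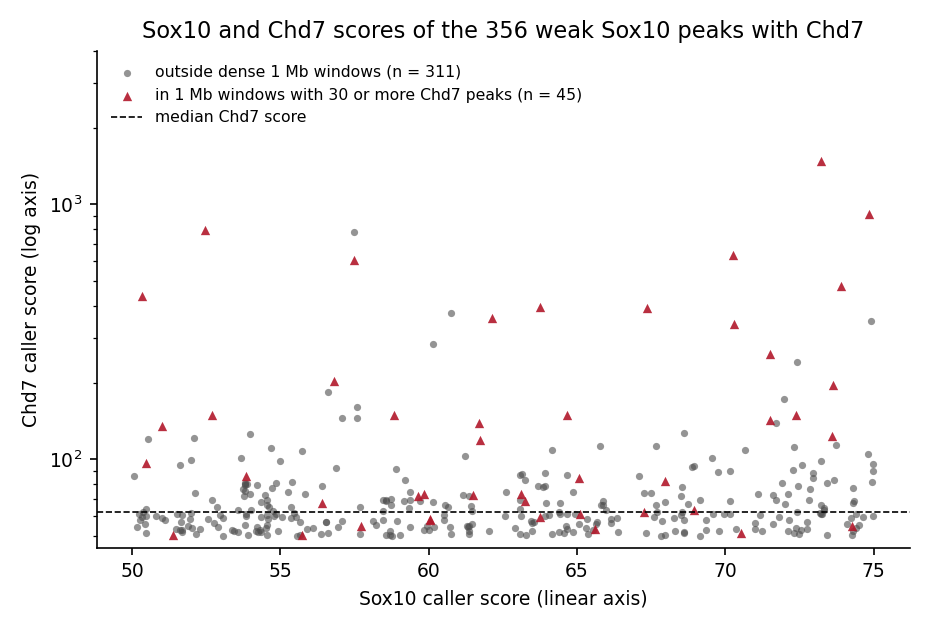
Chd7 caller score (log axis) against Sox10 caller score for each of the 356 weak shared sites. Triangles mark the 45 sites in dense windows and circles the 311 others; the dashed line is the median Chd7 score of 62.0, and 13 of the 18 sites at 200 or more are triangles.

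A window on chromosome 13, from 38 to 39 Mb, stood out among them. It held 70 Chd7 peaks and 20 Sox10 peaks, and its 10 weak Sox10 peaks were all weak shared sites. Their Chd7 scores ran from 67.5 to 1475 with a median of 393, while their Sox10 scores stayed between 50.3 and 73.2. The highest Chd7 score of any weak shared site belonged to the Sox10 peak at 38651641 to 38652385 (Sox10 score 73.2), whose Chd7 peak at 38651662 to 38652422 ranked 54 in its list of 15310. Others of the 10 highest in the same window had Chd7 scores of 796 (Sox10 at 38630822 to 38631475), 602 (38573887 to 38574341), 438 (38813572 to 38814225), 395 (38469921 to 38470174) and 391 (38583435 to 38584104). The Sox10 peak at 38813572, with a score of 50.33, was among the weakest calls of the whole list and had a Chd7 peak ranked 296.

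The remaining sites of the 10 highest lay on 3 chromosomes. Chromosome 17 had 2, at 59285243 to 59286257 (Chd7 score 917, Sox10 score 74.8) and 59263674 to 59264317 (Chd7 480, Sox10 73.9), both in a window from 59 to 60 Mb with 53 Chd7 peaks and 5 weak shared sites among 14 weak Sox10 peaks. Chromosome 1 had 1 at 188155100 to 188156112 (Chd7 632, Sox10 70.25). The site on chromosome 12 at 5760616 to 5761540 (Chd7 780, Sox10 57.5) was the exception that fell outside the dense windows, although its own window held 28 Chd7 peaks. The window with the most Chd7 peaks to hold any of these sites, on chromosome 1 from 187 to 188 Mb (103 Chd7 peaks), had 4 weak shared sites with Chd7 scores of 82.0 to 341. In a window from 40 to 41 Mb on the same chromosome, with 58 Chd7 peaks, the 3 sites had Chd7 scores between 50.4 and 53.3, so Chd7 was not strong at every site in a dense window.

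Most weak shared sites had no other weak shared site within 100 kb. When sites with centres up to 100 kb apart were joined, 319 of the 356 had no partner, and 37 fell into 12 groups. Another Sox10 peak of any kind lay within 100 kb of 92.4% of the sites and of 91.5% of the Sox10-only sites. The same joining was not made for the Sox10-only sites. The group with the most members was on chromosome 13 at 38457802 to 38652385, with 9 sites over 195 kb and a median Chd7 score of 391. The next had 5 sites over 160 kb on chromosome 17 at 59153226 to 59313713, with a median Chd7 score of 139. There were 3 groups of 3 sites: positions 187820415 to 187911635 of chromosome 1, 176252776 to 176348208 of chromosome 2 and 99824483 to 99886006 of chromosome 7. The chromosome 7 group was outside the dense windows, with 25 Chd7 peaks in its window, and the other 4 groups were inside them.

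For nearness to other Sox10 peaks within 10 kb, the difference between weak shared and weak Sox10-only sites had an interval that included 0. Another Sox10 peak of any strength was centred within 10 kb of 130 sites (36.5%, 31.5% to 41.8%) and of 38.6% of the Sox10-only sites, a difference of -2.03 points (-6.96 to 3.17), with 38.5% over all weak peaks. The median distance was 16.4 kb (13.6 to 19.9 kb) for the shared sites and 15.7 kb (15.0 to 16.2 kb) for the others. Averaged within classes of Sox10 width the 10 kb difference was -4.80 points. Outside the dense windows it was -6.42 points (-11.4 to -0.97), so the shared sites there had a close Sox10 neighbour less often. Within 5 kb the shares there were 16.7% (12.7% to 21.3%) and 24.0% (23.2% to 24.9%). The nearest neighbour was itself a weak Sox10 peak at 33.4% of the shared and 29.8% of the Sox10-only sites. Its median score was 105 (97.1 to 117) and 111 (108 to 113).

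A strong Sox10 peak, meaning one in the upper 25% of the list by score, was somewhat less often nearby. It lay within 50 kb of 123 weak shared sites (34.6%, 29.6% to 39.7%) and of 40.9% of the Sox10-only sites, a difference of -6.35 points (-11.2 to -1.19), with 40.6% over all weak peaks. Averaged within classes of Sox10 width the difference was -8.62 points. It did not hold under every setting. For Sox10 scores below 60 it turned to 2.10 points (-5.55 to 10.1). The interval also included 0 outside the dense windows (-10.7 to 0.07), with centres within 100 bp (-10.8 to 0.63), with Chd7 scores of 60 or more (-12.7 to 0.35) and for a strong peak within 100 kb (-8.45 to 2.00).

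Other Chd7 peaks were nearer to weak shared sites, and at short range this difference was not seen outside the dense windows. A second Chd7 peak, not overlapping the site, was centred within 10 kb of 78 sites (21.9%, 17.7% to 26.6%) and of 13.8% of the Sox10-only sites, a difference of 8.08 points (4.04 to 12.7), with 14.2% over all weak peaks. Without the dense windows the shares were 13.2% and 13.0%, a difference of 0.19 points (-3.19 to 4.45). At a wider range the difference outside dense windows was 3.07 points within 20 kb (-1.57 to 8.28), 4.95 within 50 kb (-0.64 to 10.6) and 7.77 within 100 kb (2.53 to 12.5), the last beside 10.4 with all windows. The median distance outside dense windows was 51.7 kb (43.2 to 60.1 kb) for shared and 61.0 kb (58.9 to 63.0 kb) for Sox10-only sites. Sites with a Chd7 score of 75 or more had a close Chd7 neighbour in 37 of 99 cases (37.4%) and the weaker ones in 41 of 257 (16.0%). Outside the dense windows those shares were 19.4% and 11.3%, and the interval of their difference, -0.67 to 19.3 points, included 0.

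**Figure D4:**
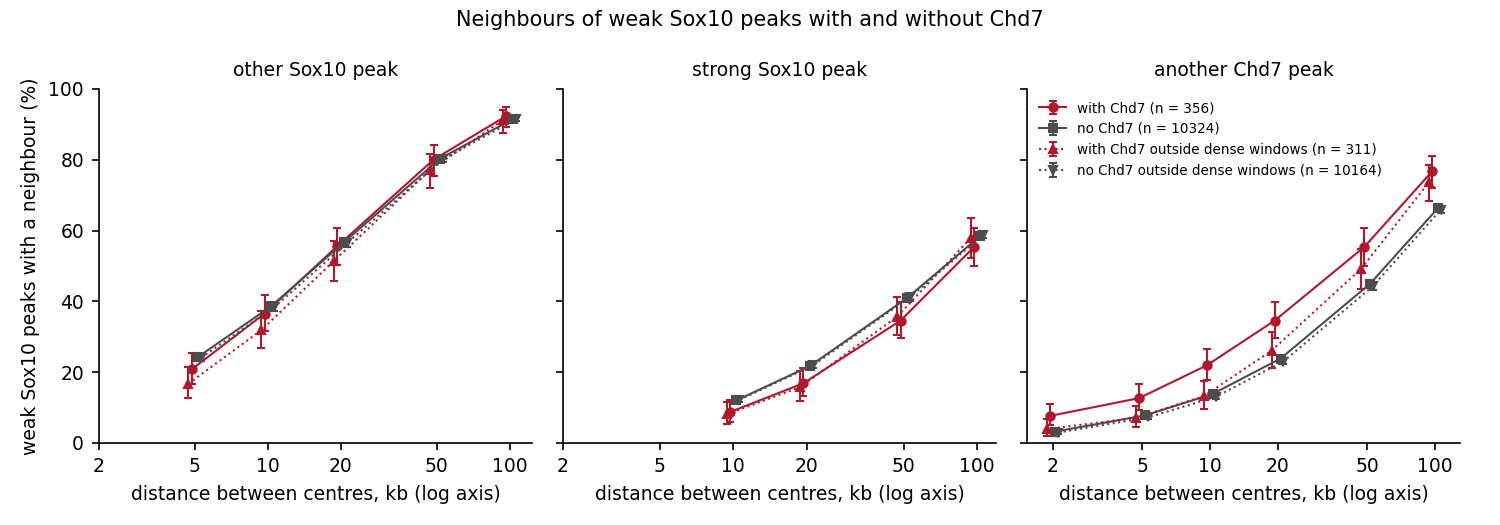
Percentage of weak Sox10 peaks with a neighbour whose centre lies within the distance on the log axis (kb): any other Sox10 peak (left), a Sox10 peak in the upper 25% by score (middle) and a Chd7 peak not overlapping the site (right). Red marks sites with Chd7 and grey those without, dotted lines leave out the dense 1 Mb windows, and bars are 95% exact binomial intervals; for Chd7 the solid red line runs above the solid grey one, at 34.6% and 23.8% within 20 kb.

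The nearest Sox10 neighbour of a weak shared site also held Chd7 more often. It overlapped a Chd7 peak at 91 of 356 sites (25.6%, 21.1% to 30.4%) and at 15.6% of the Sox10-only sites, a difference of 10.0 points (5.68 to 14.8), with 16.0% over all weak peaks. Outside the dense windows the shares were 20.9% and 15.4%, a smaller difference of 5.52 points (1.31 to 10.4). There the shares for neighbours up to 5 kb away were 13.5% and 14.3%. They were 23.1% and 17.5% from 5 to 20 kb, 22.5% and 15.3% from 20 to 50 kb, and 21.1% and 13.3% over 50 kb. Over 50 kb the interval of the 71 shared sites was 12.3% to 32.4%. In each of these classes the interval of the shared sites included the share of the Sox10-only sites. At close range the 52 shared sites outside the dense windows give a wide interval (5.59% to 25.8%) that includes the share of the Sox10-only sites.

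The sites with the weakest Chd7 and the most isolated sites show the other end of the set. The 5 lowest Chd7 scores were between 50.01 and 50.2, with Sox10 scores of 53.1 to 69.1. They were at 135428043 to 135428476 of chromosome 7, 120093970 to 120094576 of chromosome 6, 169797488 to 169797983 and 54726087 to 54726527 of chromosome 3, and 196867233 to 196867887 of chromosome 4. At each of them the Chd7 peak lay inside the Sox10 peak with centres 2.5 to 57.5 bp apart. Over all 356 sites it lay inside at 81.7%, with a median distance of 55.5 bp and the 200 bp limit applied. The site farthest from another Sox10 peak, at 655800 to 656948 of chromosome 1, was 2511 kb from it. The next were at 81738367 to 81738961 of chromosome 3 (646 kb), 99937972 to 99938492 of chromosome 5 (603 kb), 53629756 to 53630132 of chromosome 14 (469 kb) and 84629834 to 84630315 of chromosome 1 (378 kb). More than 500 kb separated 3 of the 356 shared sites (0.84%) and 28 of the Sox10-only sites (0.27%) from the nearest Sox10 peak.

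Every autosome had weak shared sites, in shares that mostly overlapped within counting error. The share of weak Sox10 peaks ran from 0.83% on chromosome 20 (2 of 240, interval 0.10% to 2.98%) to 5.57% on chromosome 13 (23 of 413, 3.56% to 8.24%). The sites on chromosome 13 include 10 in its dense window. Chromosome 1 had the most sites, 49 of 1161 weak peaks (4.22%, 3.14% to 5.54%). On the X chromosome, which the definition leaves out, the same limits gave 5 of 299 weak Sox10 peaks (1.67%, 0.55% to 3.86%).

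**Figure D5:**
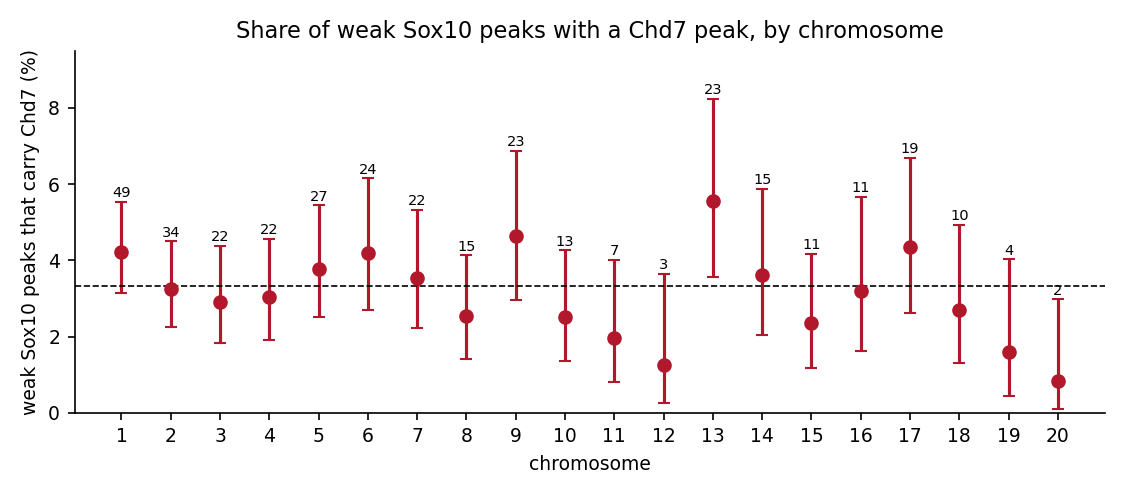
Percentage of weak Sox10 peaks that carry an aligned Chd7 peak on each autosome, with 95% exact binomial intervals; the number above each bar counts the sites and the dashed line is the share over all 20 autosomes, 3.32%. Chromosome 13 has the highest point (5.57%) and chromosome 20 the lowest (0.83%).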

How the data were processed

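The Chd7 and Sox10 ChIP-seq libraries of rat oligodendrocytes are represented by 1 peak list each. Per the submitters' processing notes, rn5 is the build and CASAVA, Bowtie2 and MACS the tools; for versions, settings, controls and filters the sources used here say nothing. The deposited caller score of each peak is used as the authors gave it, with no count or depth behind it, and ranks peaks within 1 list. Peaks were read as deposited, with starts written 1-based. Distances are between peak centres. No test was made, since each antibody has 1 library. Shares carry 95% exact (Clopper-Pearson) intervals, differences of shares Newcombe intervals, and medians exact order-statistic intervals. Pairing, nearest-peak search and intervals were tested on simulated data. The software was scipy 1.17.1, pandas 2.3.3, numpy 2.4.6 and matplotlib 3.10.9 under Python 3.11.15.

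The sites, classes and comparisons were chosen with earlier results of these data known. Named sites are the 10 with the highest and the 5 with the lowest Chd7 score, the 5 farthest from another Sox10 peak, the groups with the most sites within 100 kb, and those nearest each limit. The comparison of nearest Sox10 neighbours and the contrast of score classes were added after seeing the data. Sequence and gene annotation of rn5 were not used here, so the planned views of genes and motifs were not run and no site is assigned to a gene.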

Additional observations from a re-analysis of the deposited data

How the results depend on the processing

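Of 102 alternative values 88 stayed within the interval of the value reported. Among the 88, requiring at least 50% of the Chd7 peak to be overlapped gave the reported value for every result. A Sox10 score limit of 100 likewise left the contrast of score classes at 2.16 points, since those classes lie below 75. Those values do not bear on stability. The share of weak Sox10 peaks with Chd7, 3.32%, was 2.76% for Sox10 scores below 60, 4.14% below 100, 2.56% with centres within 100 bp and 3.77% with any overlap. It was 2.96% without dense windows. With Chd7 scores of 60 or more it was 1.96%, on a base without the other weak peaks overlapping Chd7. Each alternative redraws the set itself. With Chd7 scores of 60 or more, the median Chd7 score was 74.6, the Chd7 width 312 bp and the share in dense windows 18.0%, which follows in part from the higher floor. Windows of 20 or more Chd7 peaks held 16.6% of the sites and 2.74% of the Sox10-only sites. The width difference of 65 bp was 88.5 bp for Sox10 scores below 60. The strong-neighbour difference reversed to 2.10 points below a Sox10 score of 60, and without dense windows the difference in Chd7 neighbours was 0.19 points and that in occupied Sox10 neighbours 5.52 points; the cause was not tested. Neither antibody has a replicate to leave out. No paired analysis was possible because the labels give no replicates. Sites below the deposited score of 50 cannot be seen, and read depth is unknown.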

Other observations

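Narrow Chd7 peaks were about as frequent at weak shared sites as in the Chd7 list. At 27 of the 356 sites (7.58%) the Chd7 peak was narrower than 200 bp, against 6.69% of the Chd7 peaks on chromosomes 1 to 20, a difference of 0.90 points (-1.46 to 4.15). Their median Chd7 score was 62.4. A score of 200 or more, noticed after the values were seen, was reached by 3 of these 27, all in the chromosome 13 window from 38 to 39 Mb: 124 bp and score 602 at 38573929 to 38574052, 129 bp and score 395 at 38469965 to 38470093, and 126 bp and score 360 at 38458038 to 38458163. In the whole Chd7 list 77 of 1039 peaks under 200 bp scored that high.

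The following values were singled out after they were seen. Of the 244 weak Sox10 peaks under 300 bp, 9 held Chd7 (3.69%, interval 1.70% to 6.89%), against 1.44% at 300 to 400 bp. The median Chd7 score of these 9 sites was 98.3 (78.1 to 373), and 8 of them lay outside the dense windows. At 3 of the 9 the Chd7 peak was wider than the Sox10 peak. A site on chromosome 1 at 82139891 to 82140135 had a Sox10 peak of 245 bp and score 60.75 and a Chd7 peak of 275 bp and score 373, with the next Chd7 peak 47.4 kb away.

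Close pairs of Sox10 peaks were uncommon among shared and Sox10-only sites alike, and with all windows the interval of their difference included 0. Another Sox10 peak was centred within 2 kb of 33 of 356 shared sites (9.27%) and of 12.5% of the Sox10-only sites, a difference of -3.19 points (-5.86 to 0.33). Outside the dense windows it was -4.67 points (-7.23 to -1.11).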
